A study of Mus musculus with 20 samples.

Results

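Genes were sought whose response to the Ebf1 genotype differed, or ran in opposite directions, between a pair of stromal cell populations of mouse bone marrow. All 12 RNA-seq libraries of the series entered the comparison, out of 20 samples. The other 8 samples are ATAC-seq and were not analysed here. One population was CAR cells (CXCL12-abundant reticular cells), which were sorted as CD45-CD31-Lin-PDGFRα+Sca1-. The second population, PaS cells, was gated alike except that it was Sca1+. Each was taken from crushed and enzyme-digested femora and tibiae of C57BL/6 mice of 2 genotypes. Ebf1+/+;Prx1+/cre mice are called wt and Ebf1fl/fl;Prx1+/cre mice ko, as in the labels, so that wt and ko cells both carried 1 Cre allele. Prx1 (Prrx1) sequences drive Cre in the early limb mesenchyme, and cells that do not descend from it keep an intact Ebf1. There were 3 libraries in each of the 4 groups. The labels give no age and do not say if each replicate was 1 animal, so the p-values below cover just the spread among these libraries.

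EBF1 is a DNA-binding transcription factor best known for committing progenitors to the B cell lineage, and it is also made by marrow stromal cells. CAR cells form a network around the marrow sinusoids and supply blood cells with CXCL12 and stem cell factor. PaS cells lie mainly around arteries and at the bone surface and can give rise to bone, cartilage and fat in culture.

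Levels are in FPKM, fragments per kilobase of transcript relative to the mapped total, which allows levels of different genes to be set side by side per length. A genotype effect is the mean ko minus the mean wt value on the log2(FPKM + 1) scale, within 1 population. The difference of effects is the effect in CAR cells minus that in PaS cells, so a positive difference means that the ko value stood higher, relative to wt, in CAR than in PaS cells. Of the genes with at least 1 FPKM in at least 3 libraries, 12935 were tested with limma in 1 model of all 4 groups, after Col1a1, Col1a2 and Gsn had been left out for values of 0 that are failed estimates. An effect or difference is termed called where its p, adjusted by Benjamini-Hochberg over all tested genes, was under 0.05. Effects are given ± their standard error on the log2(FPKM + 1) scale, which understates changes of genes with low values. Every adjusted p below comes from this limma model.

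Read counts are not in the tables, so depth is unknown in absolute terms. Relative depths, read from the steps in low values, were 0.888 to 1.12 of the mean. One library, PaS wt replicate 1, had 24.6% of its genes listed at 0, and the other 11 had 33.3% to 37.0%. All 12 libraries held transcripts of Xist and of Y-linked genes, and in both populations Xist was higher and Ddx3y and Eif2s3y were lower in every ko than in every wt library; their part in the results was not tested. Ly6a, which encodes Sca1, had 4.03 to 5.58 FPKM in wt and 6.67 to 12.3 FPKM in ko CAR libraries against 1740.2 to 2176 and 1524 to 1590.3 FPKM in PaS libraries, as the gates require. Ebf1 itself had 48.9, 48.5 and 46.8 FPKM in wt and 56, 56.7 and 59.8 FPKM in ko CAR cells, and 55, 62.1 and 50.5 FPKM in wt and 65, 61.9 and 60.7 FPKM in ko PaS cells. Its level was thus not lower in ko libraries, and the difference of its effects was 0.09 ± 0.11 (adjusted p = 0.71). In CAR cells its effect was called as higher in ko (0.25 ± 0.08, adjusted p = 0.040). That call was lost in 7 of the 12 fits that leave out 1 library. In PaS cells the effect was 0.16 ± 0.08 (adjusted p = 0.25). The tables give 1 value for the whole gene and none by exon, so this value does not check the deletion or the labels.

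The difference of effects was called for 873 genes, 6.75% of those tested, 440 of them positive (3.4%) and 433 negative (3.35%). For comparison, the genotype effect was called for 12.3% of genes in CAR cells (6.55% higher and 5.75% lower in ko) and for 7.53% in PaS cells (3.46% higher and 4.07% lower). The called differences fell into 5 patterns. In 98 genes (0.758% of those tested) the effect was called in both populations with opposite signs, and these are termed opposed below; 48 were up in ko CAR and down in ko PaS cells, and 50 the reverse (43 and 30 with no filter on low values). In 54 genes (0.417%) both effects were called in 1 direction but differed in size. The effect was called in CAR cells alone for 419 genes (3.24%), in PaS cells alone for 216 (1.67%) and in neither for 86 (0.665%). Most genes with both effects called moved together: of 417 such genes, called for the difference or not, 319 (2.47% of those tested) had the same sign. The median difference over all tested genes was 0.02. All these shares of tested genes are the ones to set beside the counts of each gene list below.

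**Figure D1:**
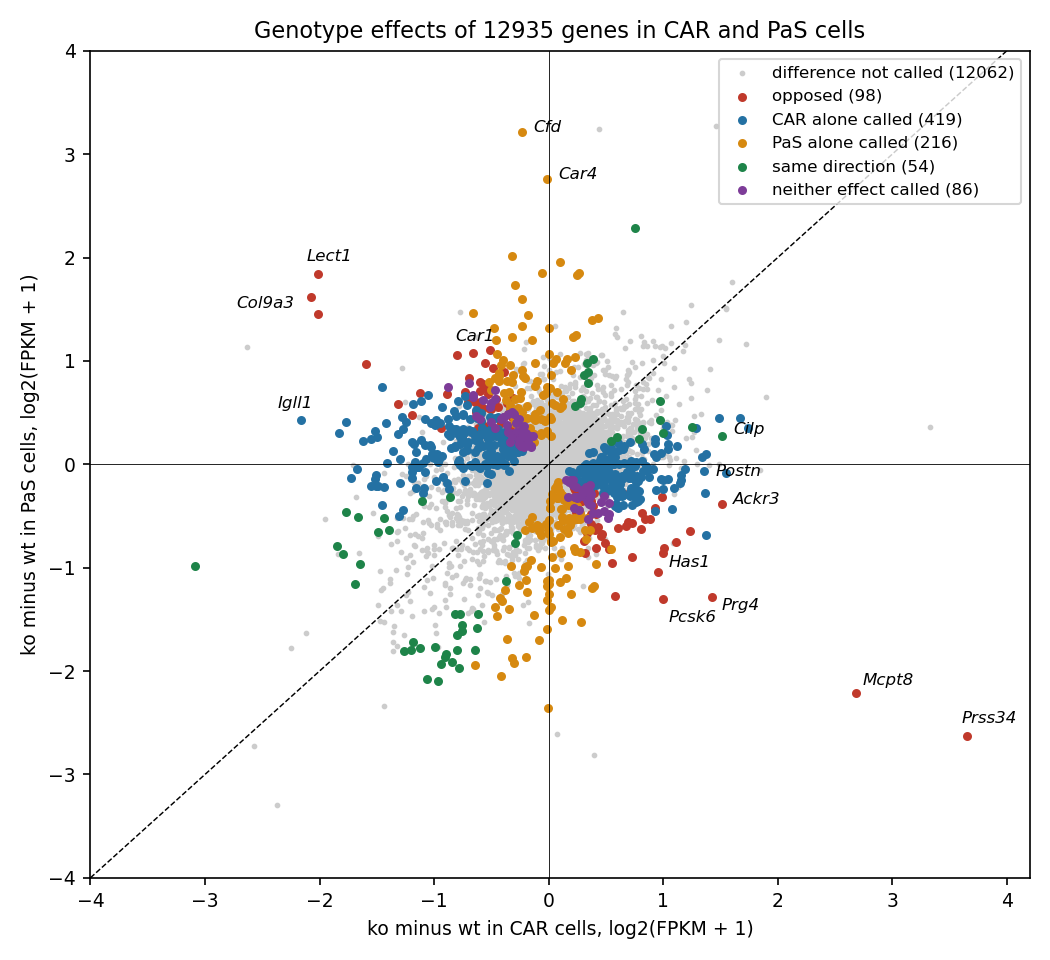
Genotype effect (ko minus wt, log2(FPKM + 1)) in CAR cells on the horizontal axis and in PaS cells on the vertical axis, 1 point per gene for all 12935 tested genes, coloured by the pattern of the called difference; the dashed line marks equal effects. The 98 opposed genes lie in the upper left and lower right of the plot, with Prss34 and Mcpt8 farthest out at the lower right and Lect1 and Col9a3 at the upper left.

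The 2 largest opposed changes were in proteases of basophil granules. Prss34, which encodes a serine protease that basophils secrete, had 2.56, 6.72 and 2.35 FPKM in wt and 65.4, 52.4 and 50.8 FPKM in ko CAR libraries. In PaS cells the order was turned, with 22.1, 24.3 and 23.4 FPKM in wt and 3.01, 1.79 and 4.46 FPKM in ko libraries. The groups did not overlap in either population, and the effects were 3.65 ± 0.27 in CAR cells (adjusted p = 2.3e-07) and -2.62 ± 0.27 in PaS cells (adjusted p = 9.2e-06). A lack of overlap between wt and ko libraries was common, at 29.9% of all tested genes in CAR and 23.4% in PaS cells. Of the 98 opposed genes, 96 had no overlap in both populations. Having both effects called nearly fixes this in advance, so for opposed genes here and below it adds no support. Mcpt8, another basophil protease, had 3.54, 4.58 and 5.48 FPKM in wt and 42.1, 31.4 and 29.9 FPKM in ko CAR libraries, and 23.7, 25.2 and 23.1 FPKM in wt and 4.47, 5.94 and 3.11 FPKM in ko PaS libraries. Its effects were 2.68 ± 0.18 and -2.22 ± 0.18, again with no overlap, and the ko CAR and wt PaS libraries were the high ones for both genes. Both are markers of cells that the CD45 gate should remove. Of the 25 basophil, mast cell and eosinophil genes in the tables, 5 were under 1 FPKM in every library, and the mast cell genes Mcpt4 and Tpsab1 were listed at 0 in every library. The summed level of the 25 genes was 150.1 to 323 FPKM in wt and 132 to 174 FPKM in ko CAR cells, and 407 to 457 FPKM in wt and 185 to 219.9 FPKM in ko PaS cells, so the sum of the list did not rise in ko CAR cells as the 2 proteases did. Of its 17 tested members, 7 were called with a positive and 1 with a negative difference, but only 2 were opposed. In CAR cells 3 members rose and 5 fell, and in PaS cells 1 rose and 10 fell. In bulk samples, fewer cells of a type and less RNA per cell cannot be told apart.

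**Figure D2:**
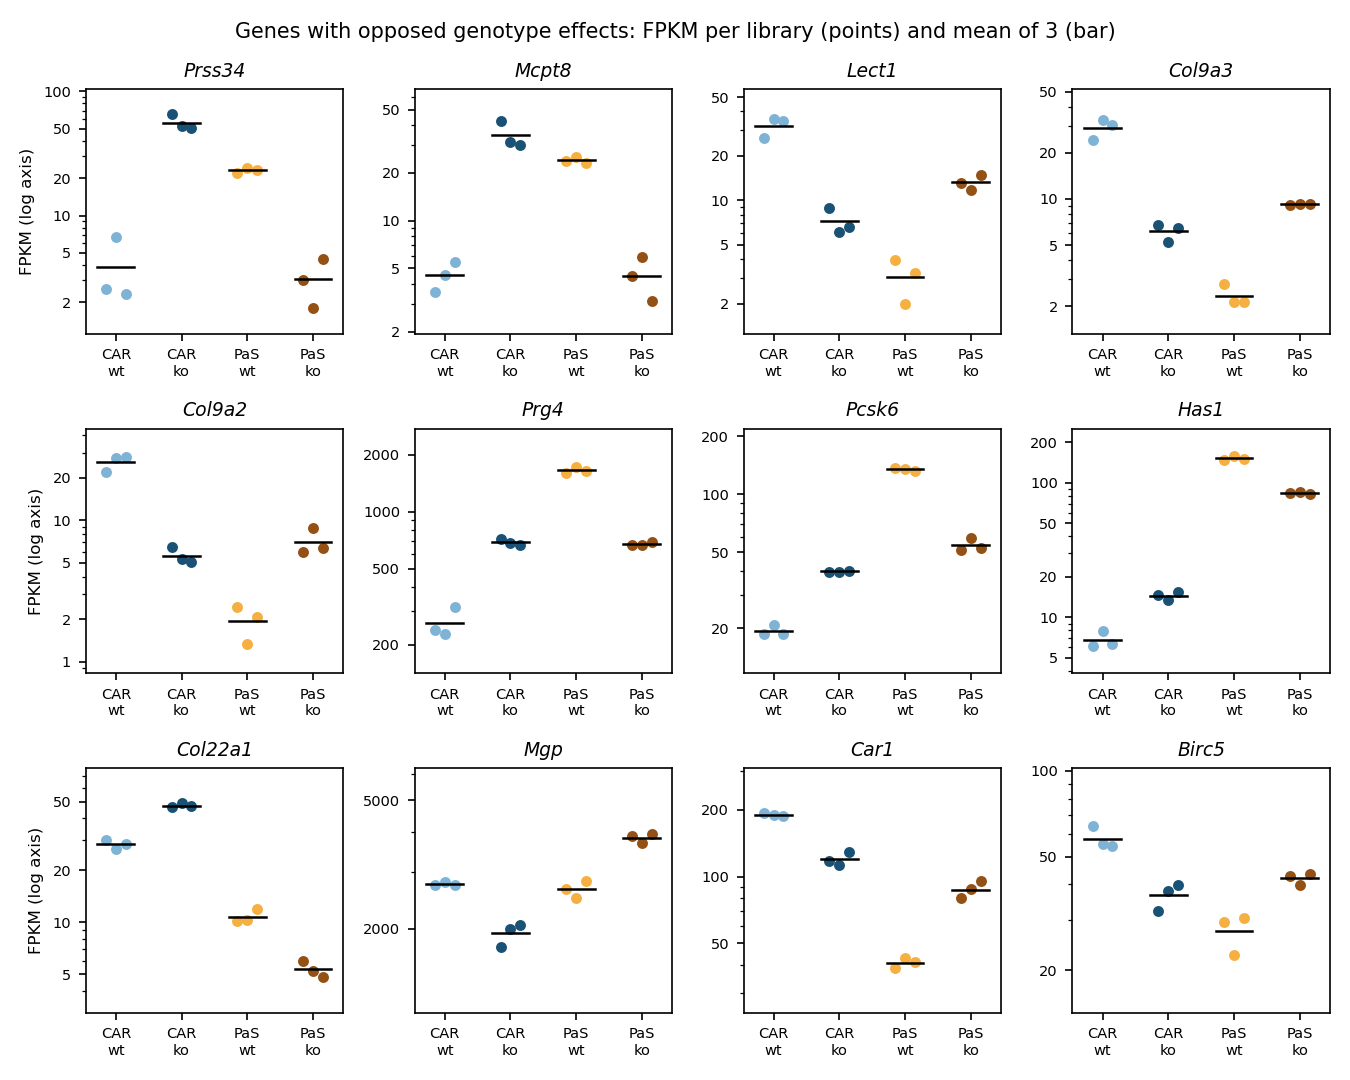
FPKM (log axis, a separate range for each gene) of 12 genes with opposed effects in the 3 libraries of each group (points) with their mean (bar). Prss34 and Mcpt8 are high in ko CAR and wt PaS cells, Lect1, Col9a3 and Col9a2 fall in CAR and rise in PaS cells, and Prg4 meets at 666 to 720 FPKM in the ko libraries of both populations.

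The sequences before the starts of 4 of the 98 opposed genes are shown as examples. Like all opposed genes, they changed in opposite directions in cells of the same genotype, and they were picked by no fixed rule. They are the 250 bases upstream of the annotated start, from RefSeq on GRCm38.p6, written 5′ to 3′ on the gene's own strand. Capitals mark matches to CCCNNGGG, the core of the palindrome that EBF proteins are known to bind (TCCCNNGGGA).
Prss34 (chr17:25298144-25298393, plus strand): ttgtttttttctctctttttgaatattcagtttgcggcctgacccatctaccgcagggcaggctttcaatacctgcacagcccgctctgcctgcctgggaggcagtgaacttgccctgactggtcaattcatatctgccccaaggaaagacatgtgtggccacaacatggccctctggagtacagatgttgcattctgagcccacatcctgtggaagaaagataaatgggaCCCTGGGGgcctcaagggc
Mcpt8 (chr14:56085198-56085447, minus strand): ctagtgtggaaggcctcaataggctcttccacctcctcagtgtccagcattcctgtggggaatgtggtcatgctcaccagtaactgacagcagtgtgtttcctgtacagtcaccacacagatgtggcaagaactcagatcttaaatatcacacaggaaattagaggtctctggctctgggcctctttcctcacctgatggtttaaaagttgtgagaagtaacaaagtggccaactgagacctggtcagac
Col9a2 (chr4:121039316-121039565, plus strand): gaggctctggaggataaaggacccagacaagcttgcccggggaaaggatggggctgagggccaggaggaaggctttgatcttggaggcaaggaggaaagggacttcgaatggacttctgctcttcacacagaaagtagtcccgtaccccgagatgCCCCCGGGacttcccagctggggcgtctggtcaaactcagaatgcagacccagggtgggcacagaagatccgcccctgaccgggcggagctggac
Pcsk6 (chr7:65861886-65862135, plus strand): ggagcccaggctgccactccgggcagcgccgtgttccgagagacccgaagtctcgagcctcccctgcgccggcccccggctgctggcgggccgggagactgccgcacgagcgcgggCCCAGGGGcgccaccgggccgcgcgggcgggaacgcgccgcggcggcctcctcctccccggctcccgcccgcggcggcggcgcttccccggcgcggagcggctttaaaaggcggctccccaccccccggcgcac
The core was in the windows of Prss34, Col9a2 and Pcsk6 and not in that of Mcpt8, so both directions of change were found with it. As picked examples, these 4 do not show how common the core is among opposed genes.

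Both motifs equal their own reverse complement in form, so the search of the gene's own strand covers both strands. The palindrome contains the core. Promoter windows matched by symbol for 9773 of the 12935 tested genes. A gene was counted if any window of its symbol held the motif. The core was found for 13.4% of all 27025 genes with a window and for 18.9% of the tested ones. It was found for 20.7% of the 644 called and for 20 of the 64 opposed genes with a window (31.2%). The full palindrome was found for 0.914% of all genes with a window, 1.17% of tested, 6 of the 644 called (0.932%) and 0 of the 64 opposed genes. A match is a description of the letters and not a binding site. Gata1, the master regulator of red cell development and 1 of these 6 genes, is shown in a window of 30 bases with the palindrome in capitals, because red cell genes are among those described below; it was chosen after its values were seen.
Gata1 (chrX:7967921-7967950, minus strand): caccagccacTCCCTGGGGAggaaagagga
Gata1 had 15.7, 15.5 and 13.5 FPKM in wt and 6.88, 7.65 and 9.55 FPKM in ko CAR libraries and 4.26, 6.18 and 5.67 FPKM in wt and 9.38, 6.29 and 8.71 FPKM in ko PaS libraries. It fell in CAR cells, with an effect of -0.82 ± 0.16, and had 0.51 ± 0.16 in PaS cells (adjusted p = 0.069).

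Cartilage genes gave the largest opposed changes in the other direction, down in ko CAR and up in ko PaS cells. Lect1 (also called Cnmd), which encodes chondromodulin, an inhibitor of vessel growth in cartilage, had 26.6, 35.4 and 34.2 FPKM in wt and 8.84, 6.14 and 6.64 FPKM in ko CAR libraries. In PaS cells it had 3.93, 2.01 and 3.23 FPKM in wt and 13.1, 11.8 and 15 FPKM in ko libraries. No ko library overlapped with the wt libraries of its population, and the effects were -2.01 ± 0.18 and 1.84 ± 0.18 (adjusted p of the difference = 1.6e-07). The 3 chains of type IX collagen, which coats cartilage fibrils, did the same. Col9a3 had 24.2, 32.5 and 30.5 FPKM in wt and 6.72, 5.25 and 6.43 FPKM in ko CAR libraries, and 2.77, 2.14 and 2.12 FPKM in wt and 9.09, 9.24 and 9.26 FPKM in ko PaS libraries. Col9a2 had effects of -2.02 ± 0.17 and 1.45 ± 0.17, from 25.8 ± 3.41 FPKM in wt CAR and 1.95 ± 0.561 FPKM in wt PaS cells (SD, n = 3). Col9a1 had effects of -1.60 ± 0.24 and 0.97 ± 0.24; the latter call was lost in 3 of the 12 fits that leave out 1 library, at an adjusted p of up to 0.080. For all 3 chains the wt CAR libraries were the highest and the wt PaS libraries the lowest.

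Type II collagen, the main fibril of cartilage, also moved in opposite directions, though it was chosen after its values were seen. Col2a1 had 362, 419 and 331 FPKM in wt and 206, 289 and 287 FPKM in ko CAR libraries, and 18.4, 17.5 and 18.6 FPKM in wt and 32.5, 45 and 44.4 FPKM in ko PaS libraries. Its effects were -0.52 ± 0.13 and 1.10 ± 0.13, and the CAR call was lost without 1 of 2 libraries, at an adjusted p of 0.090 and 0.091. Matn3, a matrilin of cartilage, rose in PaS cells, from 1.36, 0.884 and 1.3 to 6.1, 8.47 and 9.04 FPKM, with an effect of 2.02 ± 0.16; in CAR cells its effect was -0.32 ± 0.16 (adjusted p = 0.24). Mgp, matrix Gla protein, which holds back mineral in cartilage and vessels, had 2740.3 to 2791 FPKM in wt and 1764 to 2059.7 FPKM in ko CAR cells and 2486 to 2813 FPKM in wt and 3697 to 3927 FPKM in ko PaS cells. Its effects were -0.51 ± 0.06 and 0.53 ± 0.06.

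Not every cartilage gene had this pattern. Of 31 tested genes of the cartilage list, 10 were called with a negative and 3 with a positive difference, 6 were opposed, and the median difference was -0.35, against 0.02 over all genes. The median effect of the list was above 0 in both populations, at 0.34 in CAR and 0.97 in PaS cells. Cilp, a matrix protein of the middle zone of cartilage, rose in both but more in CAR cells, from 115, 120.3 and 129 to 358, 344 and 340.4 FPKM, against 358, 361 and 364 to 417, 443 and 455 FPKM in PaS cells. With effects of 1.51 ± 0.06 and 0.28 ± 0.06, its ko CAR libraries came close to the wt PaS level.

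Prg4, Has1 and Htra4, members of the joint surface, tendon and ligament list that are high in PaS cells, rose in ko CAR and fell in ko PaS cells. Prg4, which encodes lubricin, the lubricant of joint surfaces, had 238, 226 and 313 FPKM in wt and 720.0, 688 and 666 FPKM in ko CAR libraries. In PaS cells it had 1602, 1714 and 1634 FPKM in wt and 666, 667 and 692 FPKM in ko libraries. The wt populations differed several-fold and the ko populations overlapped; the effects were 1.43 ± 0.09 and -1.29 ± 0.09, and the difference was 2.71 ± 0.13 (adjusted p = 5.2e-09). Has1, a hyaluronan synthase, had 6.15, 7.89 and 6.31 FPKM in wt and 14.7, 13.4 and 15.4 FPKM in ko CAR libraries, and 149, 158 and 150.2 FPKM in wt and 83.4, 84.9 and 82.9 FPKM in ko PaS libraries, with effects of 1.00 ± 0.09 and -0.86 ± 0.09. Htra4, a secreted serine protease, had effects of 0.81 ± 0.07 and -0.63 ± 0.07 and 259 ± 3.15 FPKM in wt PaS cells (SD, n = 3). Of 28 genes of the joint surface, tendon and ligament list, 9 were called positive and 2 negative, beside 3.4% and 3.35% of all genes, and the median difference was 0.02. Only 4 of them were opposed: in CAR cells 16 rose and 1 fell, and in PaS cells 11 rose and 6 fell.

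The proprotein convertase gene Pcsk6, whose product cleaves and activates growth factors and proteases, had the same shape. It had 18.7, 20.8 and 18.7 FPKM in wt and 39.3, 39.5 and 40.0 FPKM in ko CAR libraries, and 137, 136 and 133 FPKM in wt and 50.9, 59.2 and 52.6 FPKM in ko PaS libraries. The effects were 0.99 ± 0.07 and -1.31 ± 0.07 (adjusted p of the difference = 5.2e-09), with no overlap in either population. Other opposed genes that were higher in wt PaS than in wt CAR cells were Adgrd1, an adhesion G protein-coupled receptor, with effects of 1.24 and -0.64, Lgi2, a secreted leucine-rich protein, with 0.96 and -1.04, Mustn1, a small nuclear protein of the musculoskeletal system, with 1.11 and -0.75, and Scin, an actin-severing protein, with 1.01 and -0.81. The PaS call of Scin was lost in 4 of the 12 fits without 1 library, at an adjusted p of up to 0.12. Col22a1, a collagen of tissue junctions, started from higher levels in CAR than in PaS cells, with 30.0, 26.6 and 28.3 FPKM in wt CAR and 10.2, 10.4 and 11.9 FPKM in wt PaS libraries. It rose to 46.3, 48.9 and 47.1 FPKM in CAR and fell to 5.98, 5.26 and 4.8 FPKM in PaS cells, so here the ko populations lay farther apart than the wt populations. Of the 873 called differences, 9 changed sign when computed on FPKM instead of on the log2 scale. None of the 98 opposed genes was among them, but their opposite effects nearly fix this in advance, so it is no sign of stability.

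Markers of PaS cells had higher effects in CAR than in PaS cells, and markers of CAR cells had lower ones. Of 28 genes of the PaS and fibroblast list, 14 were called with a positive difference and 0 with a negative one, and the median difference was 0.51. In CAR cells 12 of them rose and 3 fell, and in PaS cells 3 rose and 13 fell. Ackr3, a receptor that scavenges CXCL12, had 6.49, 8.67 and 8.14 FPKM in wt and 22.1, 27.6 and 22.1 FPKM in ko CAR libraries, with an effect of 1.51 ± 0.10. In PaS cells it had 369, 354 and 359 FPKM in wt and 272, 291 and 268 FPKM in ko libraries, and that effect, -0.38 ± 0.10, lost its call in 5 of the 12 fits without 1 library, at an adjusted p of up to 0.089. Even in ko libraries Ackr3 remained far lower in CAR than in PaS cells. Efemp1, an extracellular matrix glycoprotein of fibroblasts, had effects of 0.49 and -0.76, and Gfpt2, an enzyme of hexosamine synthesis, had 0.32 and -0.86; the CAR call of Gfpt2 was lost without any 1 of 3 libraries (adjusted p = 0.069 to 0.12). For Ly6a the effects were 0.76 ± 0.15 in CAR cells and -0.33 ± 0.15 in PaS cells (adjusted p = 0.25), and its difference had an adjusted p of 0.0059, or 0.051 when no filter on low values was used; its CAR effect had an adjusted p of 0.060 when CAR libraries were fitted alone. Pdgfra, the receptor used in the sort of both populations, fell in PaS cells from 136 to 149 to 107 to 116 FPKM, while its effect in CAR cells was 0.16 ± 0.07 (adjusted p = 0.15).

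Of 27 CAR cell markers, 0 were called with a positive and 8 with a negative difference, and the median difference was -0.23. In CAR cells 11 of them fell and 1 rose, and in PaS cells 5 fell and 3 rose. Adipoq, an adipokine that CAR cells make, had 1775, 1904 and 1883 FPKM in wt and 1444, 1463 and 1451 FPKM in ko CAR libraries, against 461 to 470.3 and 478 to 519 FPKM in PaS cells. Its effects were -0.35 ± 0.05 and 0.08 ± 0.05, the latter not called (adjusted p = 0.39). Gas6, a ligand of the TAM receptors, rose in PaS cells by 0.30 from 549 FPKM, with -0.18 in CAR cells (adjusted p = 0.05). The angiotensinogen gene Agt fell in CAR cells by 0.32 and had an effect of 0.08 in PaS cells (adjusted p = 0.53). These changes are modest beside the levels that set the populations apart: Agt had 466 to 502 FPKM in ko CAR and 133 to 139 FPKM in ko PaS cells. The marker lists were chosen with earlier results of these data known and are no independent evidence of this direction.

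**Figure D3:**
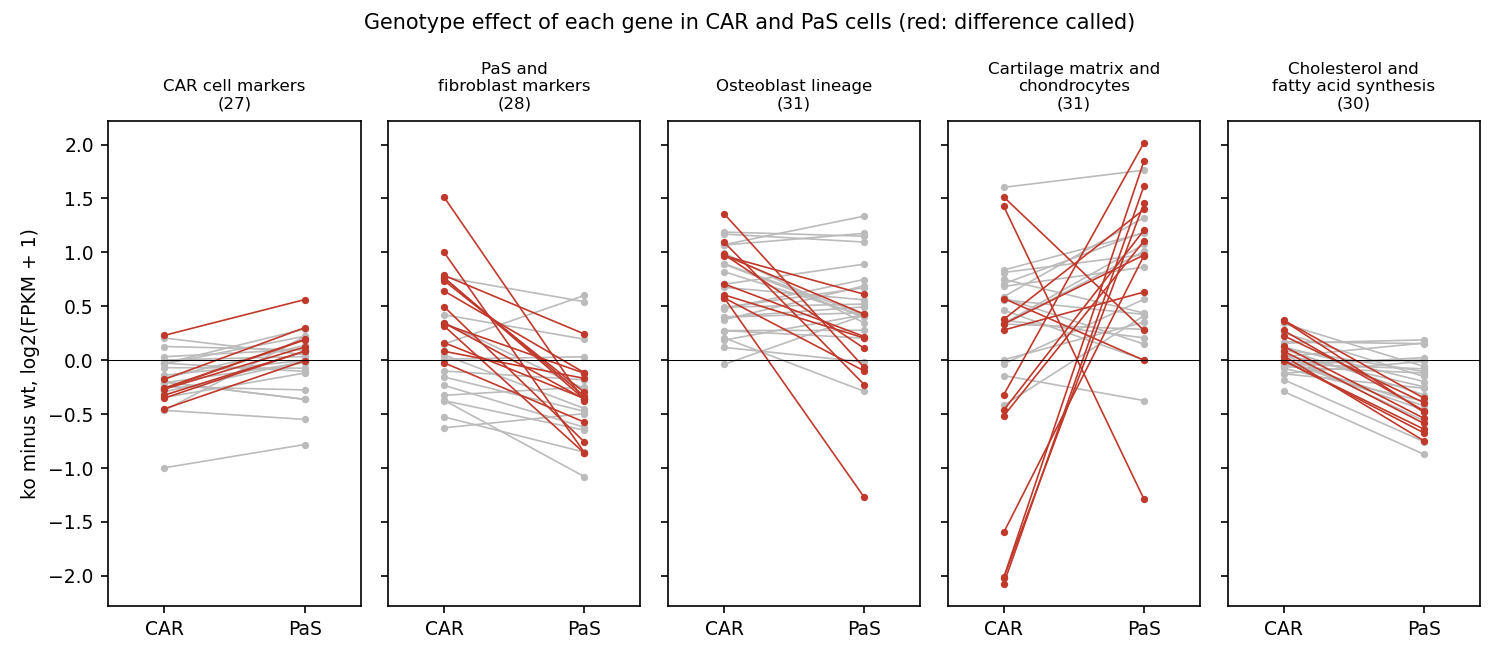
Genotype effect (ko minus wt, log2(FPKM + 1)) of every tested member of 5 gene lists in CAR cells (left end of each line) and PaS cells (right end), with the number of members in brackets; red lines are genes called for the difference. Called PaS and fibroblast markers slope down from CAR to PaS cells and called CAR markers slope up, while cartilage genes hold both slopes.

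The genes that support blood stem cells had called effects in both directions. The difference was not called for Cxcl12 (-0.03 ± 0.10, adjusted p = 0.9), the chemokine that holds stem cells in the marrow. Cxcl12 had 12486 to 14684 FPKM in ko CAR and 4127 to 4835 FPKM in ko PaS libraries. Under quantile normalization, which gives every library the same set of values, its difference was called (-0.89, adjusted p = 0.0012), and the cause was not tested. Nor was the difference called for Kitl, stem cell factor (-0.28 ± 0.12, adjusted p = 0.19), or for Il7, the B cell cytokine (0.03 ± 0.23, adjusted p = 0.96). The same held for the leptin receptor gene Lepr (-0.19 ± 0.11, adjusted p = 0.37), Vcam1 (-0.32 ± 0.11, adjusted p = 0.11) and the adipocyte regulator Pparg (-0.22 ± 0.15, adjusted p = 0.47). Single effects were called for Kitl, down in ko CAR cells (-0.29 ± 0.08, adjusted p = 0.031), and Vcam1, up in ko PaS cells (0.29 ± 0.08, adjusted p = 0.034). These calls were lost in 5 and 4 of the 12 fits without 1 library. Of the 21 tested niche factors, 2 had a called positive and 4 a called negative difference (28.6% against 6.75% of all genes), and 5 of these 6 were opposed. In CAR cells 3 rose and 5 fell, and in PaS cells 5 rose and 3 fell. The summed share of the list in all FPKM was 4.997% to 5.2% in wt and 6.21% to 6.56% in ko CAR cells. In PaS cells it was 1.34% to 1.45% in wt and 1.59% to 1.79% in ko libraries. The heparin-binding growth factor Mdk had 207, 200.4 and 203 FPKM in wt and 139, 150.4 and 169 FPKM in ko CAR libraries, and 67.7, 61.6 and 65.4 FPKM in wt and 83.4, 88.9 and 85 FPKM in ko PaS libraries. It fell by 0.42 and rose by 0.40, and its relative Ptn had effects of -0.31 and 0.64. Nov (Ccn3), a matricellular protein, fell in PaS cells from 462 ± 5.62 to 276 ± 22.6 FPKM (SD, n = 3) and had an effect of 0.31 in CAR cells, and the cytokine Il6 had effects of 0.24 and -0.46. The CAR calls of Ptn, Nov and Il6 were lost in 8, 7 and 5 of the 12 fits without 1 library, at adjusted p-values of up to 0.16, 0.17 and 0.12.

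Of 8 tested genes of the Ebf and Prrx1 list, 0 were called for the difference in limma, and 2 had an unadjusted p under 0.05. Ebf3, the relative that CAR cells need to keep the marrow cavity open, had 32 to 43 FPKM in wt and 24.7 to 29.9 FPKM in ko CAR cells and a difference of -0.60 ± 0.22 (adjusted p = 0.13), which was called without PaS ko replicate 3 (-0.79, adjusted p = 0.032). For Ebf2 the difference was 0.27 ± 0.17 (adjusted p = 0.41), for Ebf4 -0.71 ± 0.32 (adjusted p = 0.23) and for Prrx1, whose regulatory sequence drives the Cre, 0.06 ± 0.14 (adjusted p = 0.86). Over all 12935 genes, 2593 had an unadjusted p under 0.05.

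Most bone genes rose in ko CAR cells and fewer did in ko PaS cells, and where the difference was called the CAR effect was the higher one. Of 31 osteoblast lineage genes, 9 were called with a positive and 0 with a negative difference, and in CAR cells 26 rose and 0 fell, in PaS cells 17 rose and 1 fell. The list's median effects were 0.68 in CAR and 0.42 in PaS cells. Postn, periostin of the bone surface, had 169, 159 and 167 FPKM in wt and 427, 425 and 422 FPKM in ko CAR libraries. In PaS cells it had 259, 279 and 275 FPKM in wt and 267, 250.0 and 259 FPKM in ko libraries, which overlap, and an effect of -0.07 ± 0.05 (adjusted p = 0.54) beside 1.36 ± 0.05 in CAR cells. Smpd3, a sphingomyelinase needed for mineralisation of the skeleton, was the 1 opposed member, with 26, 29.2 and 27.8 FPKM in wt and 39.6, 49.1 and 37.5 FPKM in ko CAR libraries and 25.8, 25.4 and 24.8 FPKM in wt and 9.12, 10.2 and 10.5 FPKM in ko PaS libraries. The wt populations were nearly alike in Smpd3, and the ko populations were not. The homeobox gene Dlx3 rose in CAR cells by 1.10 and had -0.23 in PaS cells (adjusted p = 0.53), and the pyrophosphate transporter gene Ank rose in both, by 0.97 and 0.43.

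Of 48 matrix glycoproteins and proteoglycans, 16 had a called positive and 6 a called negative difference (45.8% against 6.75% of all genes), with a median of 0.14. Thbs1, thrombospondin-1, rose in CAR cells from 104 to 117 to 202 to 228 FPKM, and its effect in PaS cells was -0.05 ± 0.07 (adjusted p = 0.79). Vit, vitrin, had effects of 0.43 ± 0.08 and -0.61 ± 0.08. The fibronectin gene Fn1, chosen after its values were seen, had 58.2, 66.1 and 46.3 FPKM in wt and 83.3, 118 and 107 FPKM in ko CAR libraries, and 1246, 1197 and 1134 FPKM in wt and 825, 833 and 810.3 FPKM in ko PaS libraries, with effects of 0.84 ± 0.12 and -0.53 ± 0.12. The PaS effect had an adjusted p of 0.060 with no filter on low values. The populations were closer in ko than in wt libraries, and wt and ko libraries did not overlap in either population. Among 21 collagens, leaving out those of the cartilage list, 6 were called positive and 1, Col8a1, negative. Col8a1, a short-chain collagen, rose in PaS cells from 74.4 to 79.8 to 112 to 117 FPKM and had an effect of 0.11 in CAR cells (adjusted p = 0.32). Of 40 matrix proteases and their inhibitors, 7 were called positive and 1 negative. The gelatinase gene Mmp2 rose in CAR cells from 175 to 187 to 284 to 313 FPKM with 0.03 ± 0.05 in PaS cells (adjusted p = 0.8), and Serpinf1, pigment epithelium-derived factor, rose by 0.51 in CAR cells with 0.00 in PaS cells.

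Among signalling genes the difference was called for 22% of the BMP and TGF-beta list, 17.1% of the IGF, PDGF and FGF list and 15.6% of the Wnt list, beside 6.75% of all genes. Among ligands, Bmp2 rose in CAR cells by 0.51 and had an effect of -0.26 in PaS cells (adjusted p = 0.2), while Bmp4 had small opposed effects of -0.21 and 0.26, whose calls were lost in 9 and 3 of the 12 fits without 1 library; the CAR call was also lost with the replicate number as a block (adjusted p = 0.057). Bmp1, the procollagen protease, rose in CAR cells by 0.42. Of 50 BMP and TGF-beta genes, 8 were called positive and 3 negative. Fgf18, a growth factor of bone and cartilage, had 2.75, 3.77 and 3.43 FPKM in wt and 8.15, 8.51 and 6.29 FPKM in ko CAR libraries and an effect of 1.00 ± 0.12, against -0.24 ± 0.12 in PaS cells (adjusted p = 0.31). Igfbp3, a carrier of insulin-like growth factors, fell in CAR cells from 269, 277 and 282 to 145, 117 and 131 FPKM. In PaS cells Igfbp3 had 123 to 130.0 FPKM in wt and 112 to 129 FPKM in ko libraries, which overlap, so that the ko CAR level came down to that of PaS cells. Of 35 IGF, PDGF and FGF genes, 4 were called positive and 2 negative.

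Of 45 Wnt pathway genes, 2 were called positive and 5 negative. The secreted modulators Dkk3 and Sfrp2 both had higher effects in PaS cells: Dkk3 rose by 0.34 in CAR and 0.79 in PaS cells, and Sfrp2 by 0.43 in PaS cells with 0.02 in CAR cells (adjusted p = 0.92). Of 41 axon guidance genes 5 were called, all positive, among them the secreted cue Ntn1, which had 2.92, 2 and 1.89 FPKM in wt and 3.85, 4.33 and 4.53 FPKM in ko CAR libraries and 35.1, 35 and 32.4 FPKM in wt and 19, 25.2 and 24.7 FPKM in ko PaS libraries. The groups of Ntn1 did not overlap in either population, but its PaS call was lost in 3 of the 12 fits without 1 library, at up to 0.11. The semaphorin Sema3e rose in CAR cells from 0.11 to 0.745 to 1.59 to 2.59 FPKM, far below its 13 to 17.3 FPKM in ko PaS cells. Of 44 stromal transcription factors, 3 were called, a share (6.82%) near that of all genes. Among them were Osr2, with effects of 0.72 in CAR and -0.23 in PaS cells, and Foxd1, with 0.76 and -0.29. Neither PaS effect was called (adjusted p = 0.17 and 0.31). The list of Hedgehog and Notch genes had 2 positive and 1 negative calls among 28 (10.7%). That of cell adhesion genes had 5 positive and 0 negative among 39 (12.8%), beside 6.75% of all genes.

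Of 18 adipocyte lineage genes 7 were called, 2 with a positive and 5 with a negative difference; in CAR cells 1 rose and 3 fell, and in PaS cells 4 rose and 2 fell. Cfd, adipsin, a serine protease of adipocytes, had 2.26, 2.72 and 2.95 FPKM in wt and 35, 30.4 and 32.9 FPKM in ko PaS libraries. In CAR cells it stayed low, with 1.82, 0.42 and 1.09 FPKM in wt and 0.842, 0.643 and 0.71 FPKM in ko libraries, and its effects were 3.22 ± 0.20 in PaS and -0.23 ± 0.20 in CAR cells (adjusted p = 0.53). Car4, a membrane-bound carbonic anhydrase, was under 0.5 FPKM in 9 libraries and had 9.36, 5.12 and 5.02 FPKM in the 3 ko PaS libraries. Of 30 cholesterol and fatty acid synthesis genes, 9 were called with a positive and 0 with a negative difference, and the median difference was 0.41; 12 fell in PaS cells and 2 rose in CAR cells. Scd1, the stearoyl-CoA desaturase, a member of both lists, had 47.6, 42.4 and 49.5 FPKM in wt and 25.5, 27.4 and 29 FPKM in ko PaS libraries, which did not overlap. In CAR cells Scd1 had 13.3 to 16.4 FPKM in wt and 13.8 to 16.3 FPKM in ko libraries, which did. Acly, which makes cytosolic acetyl-CoA, had effects of -0.59 in PaS and 0.08 in CAR cells (adjusted p = 0.64). Msmo1, a sterol oxidase, was opposed, with 0.37 in CAR and -0.48 in PaS cells, and its CAR call was lost in 4 of the 12 fits without 1 library, at up to 0.11.

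Cell cycle genes fell in ko CAR cells and several rose in ko PaS cells. Of 36 such genes, 15 were called with a negative and 0 with a positive difference, the median difference was -0.62, and 6 were opposed; 19 fell in CAR cells and 6 rose in PaS cells. Birc5, survivin, had 64, 55.4 and 54.4 FPKM in wt and 32.4, 37.9 and 39.8 FPKM in ko CAR libraries, and 29.6, 22.7 and 30.4 FPKM in wt and 42.9, 39.8 and 43.5 FPKM in ko PaS libraries. Neither population's groups overlapped, and wt CAR libraries were the highest and wt PaS libraries the lowest. The proliferation marker Mki67 had effects of -0.60 ± 0.13 and 0.60 ± 0.13, and Rrm2, a subunit of ribonucleotide reductase, -0.58 ± 0.11 and 0.55 ± 0.11. Gmnn, geminin, the inhibitor of DNA licensing, had effects of -0.73 ± 0.16 and 0.70 ± 0.16; the latter call was lost without any 1 of 3 libraries, at up to 0.074.

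Of the red cell genes 15 fell and 0 rose in ko CAR cells, and 9 rose and 0 fell in ko PaS cells. Of 23 erythroid genes, 16 were called with a negative and 0 with a positive difference, 8 were opposed, and the median difference was -0.99. Car1, a carbonic anhydrase of red cells, had 193, 189.5 and 189 FPKM in wt and 118, 113 and 129.8 FPKM in ko CAR libraries, and 38.9, 42.8 and 41.1 FPKM in wt and 79.8, 87.5 and 95.1 FPKM in ko PaS libraries. All 4 groups of Car1 were separate, with effects of -0.66 ± 0.07 and 1.07 ± 0.07. Rhd, a blood group protein, had effects of -0.69 ± 0.09 and 0.84 ± 0.09, and Slc4a1, the anion exchanger band 3, -0.71 ± 0.12 and 0.60 ± 0.12. Klf1, the erythroid transcription factor, chosen after its values were seen, had 37.9, 36.8 and 32.8 FPKM in wt and 21.1, 20.0 and 29.7 FPKM in ko CAR libraries and 14.6, 15.4 and 14 FPKM in wt and 22.1, 27.8 and 24.1 FPKM in ko PaS libraries. The summed share of the erythroid list in all FPKM was 0.992% to 1.14% in wt and 0.577% to 0.64% in ko CAR cells, and 0.887% to 1.07% in wt and 1.1% to 1.17% in ko PaS cells, and that of the cell cycle list 0.114% to 0.13% and 0.0781% to 0.0813% in CAR and 0.0675% to 0.0748% and 0.0869% to 0.0921% in PaS cells. Both shares moved the same way in each population, and the part of the one in the other was not tested.

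**Figure D4:**
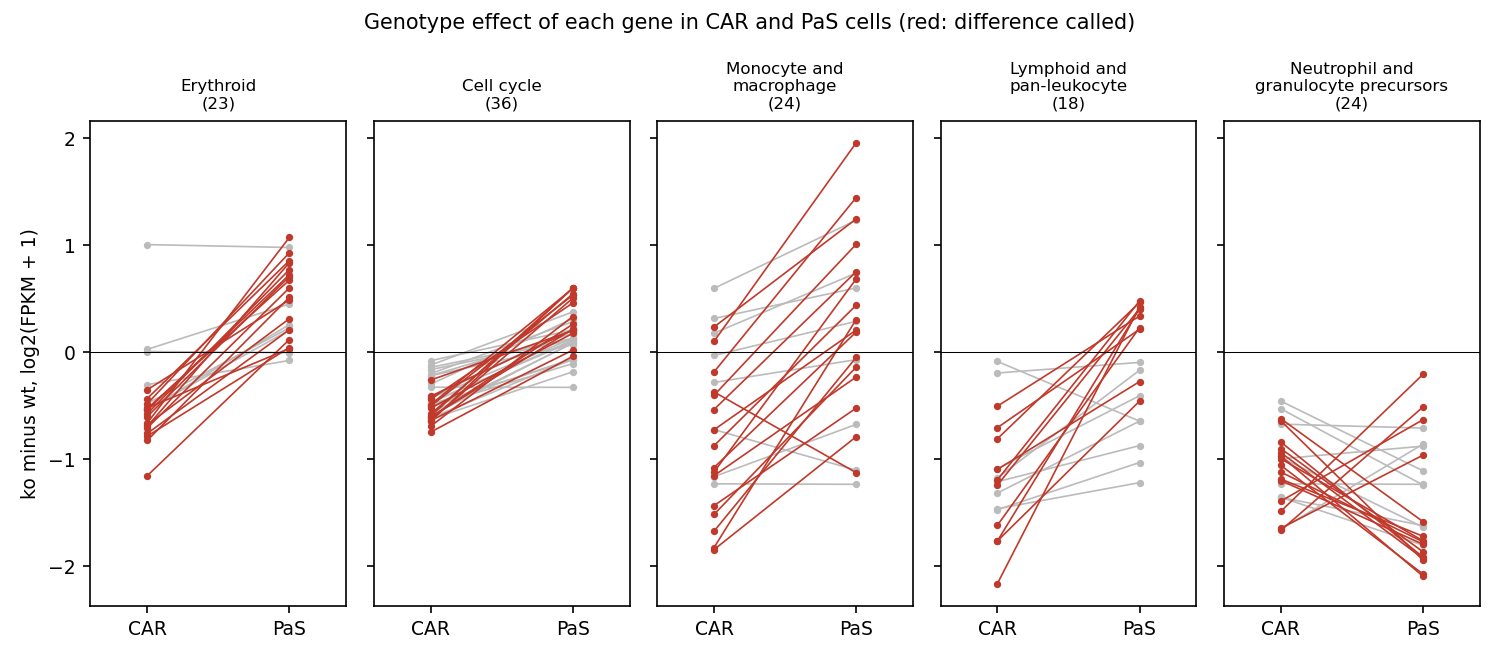
Genotype effect (ko minus wt, log2(FPKM + 1)) of every tested member of 5 gene lists in CAR cells (left end of each line) and PaS cells (right end), with the number of members in brackets; red lines are genes called for the difference. Erythroid and cell cycle genes called for the difference lie below 0 in CAR cells and mostly above 0 in PaS cells, and neutrophil genes lie below 0 at both ends.

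Other blood cell transcripts differed by lineage, although cells positive for CD45, CD31 or lineage markers were gated out. Together 130 blood cell genes made up 3.36% to 3.83% of all FPKM in wt and 1.64% to 1.74% in ko CAR cells, and 6.14% to 6.49% in wt and 2.87% to 2.98% in ko PaS cells. Ptprc, which encodes CD45, had 5.38 to 7.98 FPKM in wt and 2.11 to 3.19 FPKM in ko CAR cells and 9.67 to 14.8 and 8.42 to 8.77 FPKM in PaS cells, with a difference of -0.68 ± 0.24 (adjusted p = 0.12). Pecam1, which encodes CD31, had at most 5.67 FPKM as a group mean and a difference of 0.29 ± 0.23 (adjusted p = 0.54). Neutrophil genes fell in both populations and more in PaS cells: of 24, 11 had a called positive and 4 a called negative difference, 13 of them with both effects down. S100a9, a calcium-binding protein of neutrophils, had 3013, 3115 and 2773 FPKM in wt and 1442, 1366 and 1283 FPKM in ko CAR libraries, and 6917, 6611 and 7144 FPKM in wt and 1966, 2019.9 and 2059.8 FPKM in ko PaS libraries. Chil3, a chitinase-like protein, fell by 1.06 and 2.07, and Ltf, lactoferrin, by 0.84 and 1.92. Mpo, myeloperoxidase of the precursors, went against this, and was chosen after its values were seen: it fell from 586, 473 and 448 to 177, 142 and 152 FPKM in CAR cells and from 137, 163 and 149 to 119.8, 94.8 and 99.9 FPKM in PaS cells, with effects of -1.67 ± 0.11 and -0.51 ± 0.11; the latter had an adjusted p of 0.051 with no filter on low values.

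Monocyte, macrophage and lymphoid genes fell mainly in CAR cells. In the monocyte and macrophage list 16 genes fell and 0 rose in CAR cells, while 5 fell and 9 rose in PaS cells. In the lymphoid and pan-leukocyte list 16 fell and 0 rose in CAR cells, and 4 fell and 1 rose in PaS cells. Of 24 monocyte and macrophage genes, 15 had a called negative and 1 a called positive difference, with a median of -0.97. Laptm5, a lysosomal protein of leukocytes, had 35.3, 38.6 and 38.1 FPKM in wt and 11.7, 11.1 and 10.3 FPKM in ko CAR libraries and overlapping levels of 51.4 to 57.9 and 50.7 to 53.4 FPKM in PaS cells. Ctss, the protease cathepsin S, was opposed, with effects of -1.12 ± 0.15 and 0.69 ± 0.15, and so was the macrophage gene Aif1, with -0.80 ± 0.17 and 1.06 ± 0.17. C1qc, a complement subunit of resident macrophages, chosen after its values were seen, rose in PaS cells from 50.5, 38.4 and 61.6 to 155, 117 and 139.8 FPKM and was under 3 FPKM in every CAR library. Of 18 lymphoid and pan-leukocyte genes, 10 were called negative and 0 positive. Igll1, part of the surrogate light chain of pre-B cells, had 11.2, 10.6 and 11.7 FPKM in wt and 1.39, 1.96 and 1.83 FPKM in ko CAR libraries and 8.88, 7.5 and 14.5 FPKM in wt and 13.9, 12.4 and 14.7 FPKM in ko PaS libraries. Its partner Vpreb1 had effects of -1.77 ± 0.18 and 0.41 ± 0.18 (adjusted p = 0.22 in PaS cells). Of 20 antigen presentation genes, 7 were called negative and 0 positive; the class II chaperone gene Cd74 fell in CAR cells by 0.71, with 0.13 in PaS cells (adjusted p = 0.46), and B2m, the class I light chain, fell from 6216 to 6451 to 4989 to 5176 FPKM. The summed share of the lymphoid list was 0.0828% to 0.0849% in wt and 0.029% to 0.0311% in ko CAR cells, and 0.0934% to 0.0962% and 0.0646% to 0.0718% in PaS cells; the part of such cells in these results was not tested.

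Among chemokines and cytokines, 10 of 37 were called positive and 3 negative. Cxcl1, which attracts neutrophils, had 371 to 406 FPKM in wt and 434 to 454 FPKM in ko CAR cells, and fell in PaS cells from 698, 776 and 726 to 505, 453 and 508 FPKM, an effect of -0.58 ± 0.06. The list also holds Lcn2, a lipocalin of neutrophils, which fell by 0.94 in CAR and by 1.93 in PaS cells. Immediate early and stress genes, which digestion of tissue can induce, had 6 called positive and 0 called negative of 30, with a median of 0.24; Atf3, a stress transcription factor, rose in CAR cells by 0.55 and had -0.22 in PaS cells (adjusted p = 0.062). Of 36 interferon response genes, 3 were called positive and 1 negative (11.1% in all, beside 6.75% of all genes). Of 20 endothelial genes 3 were called, all positive, including Tek, the angiopoietin receptor, which fell in PaS cells from 24.3, 20.1 and 18.6 to 6.57, 10.3 and 8.06 FPKM and was under 1 FPKM in every CAR library. The clock, oxidative phosphorylation and megakaryocyte lists had 1 of 18, 2 of 35 and 1 of 18 tested members called (5.56%, 5.71% and 5.56%). The pericyte list had 1 of 15 (6.67%), the Schwann cell list 2 of 6 and the skeletal muscle list 0 of 6. Apart from the Schwann cell and muscle lists, these shares were near the 6.75% of all genes. Of the muscle genes 2 had an unadjusted p under 0.05.

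**Figure D5:**
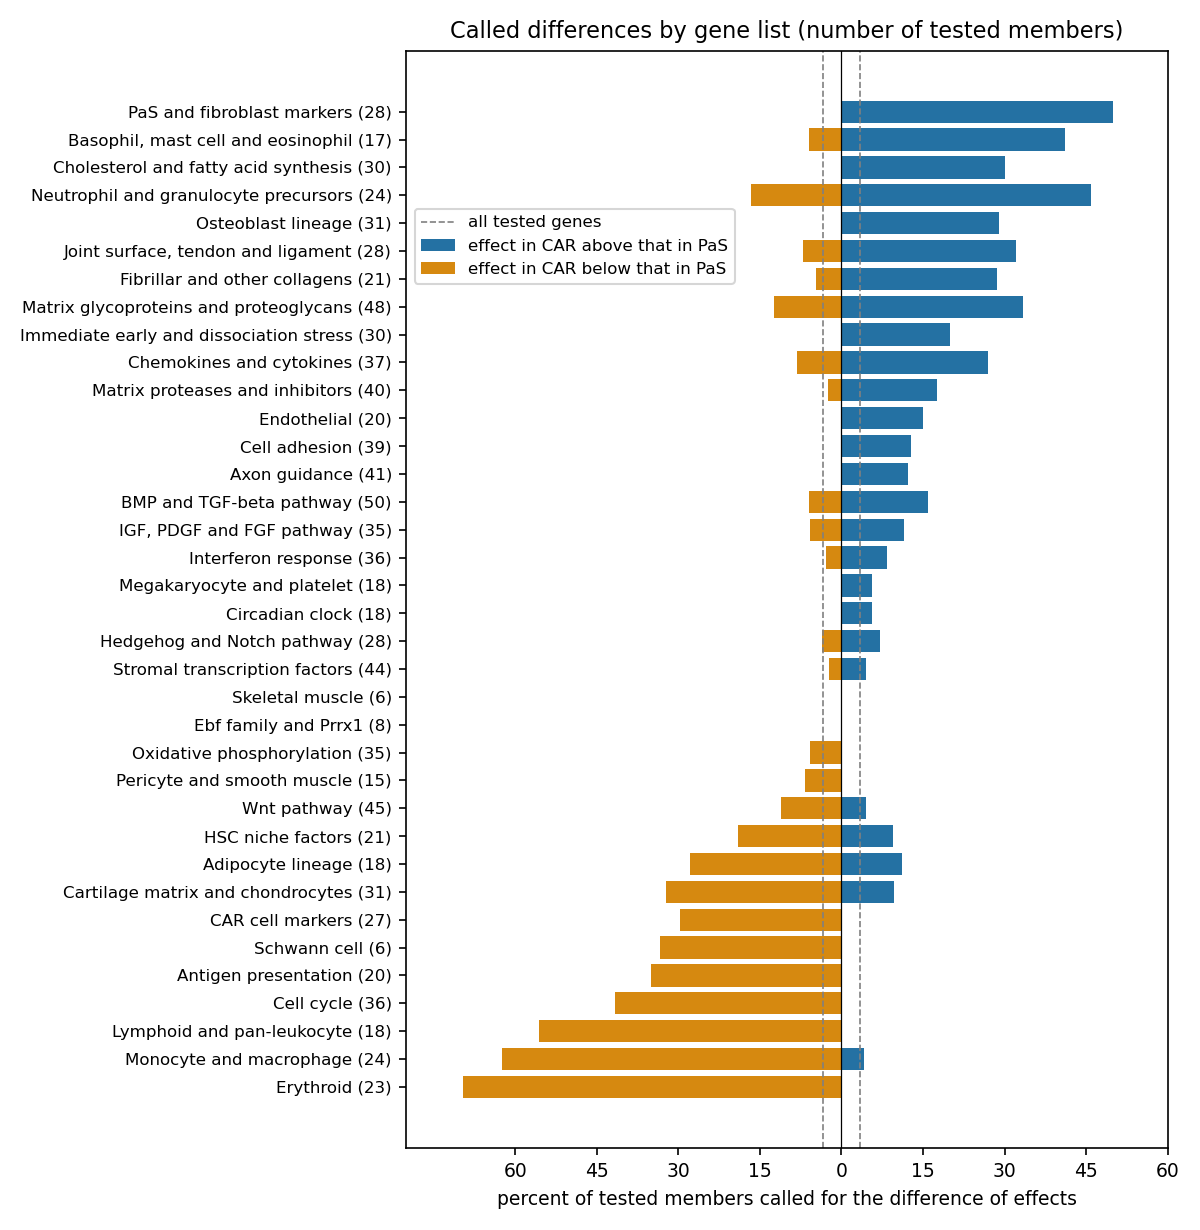
Percent of the tested members of each of 36 gene lists (number in brackets) called for the difference of effects; blue bars to the right are members whose effect was higher in CAR than in PaS cells, orange bars to the left those whose effect was lower, and dashed lines mark the shares of all 12935 tested genes (3.4% and 3.35%). PaS and fibroblast markers reach 50.0% on the right and erythroid genes 69.6% on the left.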

How the data were processed

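RNA from sorted CAR and PaS cells was enriched with oligo dT beads and made into SMART-Seq v4 libraries, per the labels' protocols. TopHat2 2.0.14, Cufflinks 2.2.1, Cuffnorm 2.2.1 and Cuffdiff are named, with mm10, per the submitters' processing notes; the annotation, the filters and any use of strand are not given in the sources used here, so overlapping or near-identical genes (H2, Gbp, hemoglobin and the Mcpt genes) are uncertain. The deposited values are FPKM per gene symbol, 1 table per library, per the file headers. No counts were given, so no count model or counting interval was used. The number of libraries (3 per group) and their unknown depth limit the precision.

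The genes reaching 1 FPKM in 3 or more libraries were put on the log2(FPKM + 1) scale and fitted in R 4.3.3 with limma 3.58.1 (functions lmFit, contrasts.fit and eBayes with trend; 8 residual and 7.21 prior degrees of freedom), two-sided, adjusted by Benjamini-Hochberg over all genes. The model for the difference was tried on simulated data with known differences on the log2 scale. It recovered 28.8% of those of size 0.5, 77.6% of size 1 and 100% of size 2, so small differences can be missed. Effects within 1 population and the patterns were not tested this way. Figures used matplotlib 3.10.9.

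Named genes were the 15 opposed genes with the largest smaller effect, the 8 largest called differences in each direction (both at 5 FPKM or more in every library of 1 group), up to 4 called members of each of 36 gene lists with the smallest p, of which part are described, and 16 fixed genes (the Ebf genes with Prrx1, niche genes and sort markers). Predicted, clone-named, small RNA, Y-linked and failed-zero genes and Xist were left out. List members whose call was lost under an alternative were left out of the description. One called list member is not reported here. The comparison, the lists and the genes were chosen with earlier results of these data known. The blood cell share leaves out list members that stromal or vascular cells also express. Alternatives were other pseudocounts (0.1 and 5), quantile normalization, median-ratio scaling, a stricter filter of 5 FPKM or none, weights per library, the replicate number as a block, keeping the 3 genes left out, leaving out predicted genes, failed zeros as missing, each population fitted alone, and each library left out in turn.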

Additional observations from a re-analysis of the deposited data

Results flagged for a closer look

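Each gene named here had a genotype effect that differed between CAR and PaS cells by the test of the difference itself (limma, Benjamini-Hochberg adjusted p under 0.05 over all 12935 genes). The values are the differences of effects, CAR minus PaS, on the log2(FPKM + 1) scale, for all 82 called genes that are described above. The rule bears on every called gene, and 6.75% of all tested genes were called.

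Opposed genes that rose in ko CAR and fell in ko PaS cells were Prss34 at 6.28, Mcpt8 at 4.9, Prg4 at 2.71, Pcsk6 at 2.3, Lgi2 at 1.99, Ackr3 at 1.89, Adgrd1 at 1.88, Mustn1 at 1.86, Has1 at 1.85, Smpd3 at 1.85, Scin at 1.82, Col22a1 at 1.62, Htra4 at 1.44, Fn1 at 1.37, Efemp1 at 1.25, Ntn1 at 1.25, Gfpt2 at 1.18, Nov at 1.05, Vit at 1.04, Msmo1 at 0.849 and Il6 at 0.697. Opposed genes that fell in ko CAR and rose in ko PaS cells were Lect1 at -3.86, Col9a3 at -3.69, Col9a2 at -3.47, Col9a1 at -2.57, Aif1 at -1.86, Ctss at -1.81, Car1 at -1.74, Col2a1 at -1.62, Rhd at -1.53, Gmnn at -1.43, Slc4a1 at -1.31, Klf1 at -1.31, Birc5 at -1.25, Mki67 at -1.2, Rrm2 at -1.12, Mgp at -1.04, Ptn at -0.951, Mdk at -0.813 and Bmp4 at -0.473.

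Genes with an effect called in CAR cells alone that rose there were Sema3e at 1.5, Postn at 1.43, Dlx3 at 1.32, Fgf18 at 1.24, Ly6a at 1.1, Foxd1 at 1.05, Thbs1 at 0.957, Osr2 at 0.954, Atf3 at 0.767, Bmp2 at 0.766, Mmp2 at 0.686, Bmp1 at 0.549 and Serpinf1 at 0.503. Genes that fell there were Igll1 at -2.59, Vpreb1 at -2.17, Laptm5 at -1.63, Gata1 at -1.34, Igfbp3 at -1, Cd74 at -0.843, Adipoq at -0.435, B2m at -0.432 and Agt at -0.407.

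Genes with an effect called in PaS cells alone that fell there were Tek at 1.45, Scd1 at 0.788, Cxcl1 at 0.775, Acly at 0.67 and Pdgfra at 0.517. Genes that rose there were Cfd at -3.45, Car4 at -2.78, Matn3 at -2.34, C1qc at -1.63, Gas6 at -0.478, Col8a1 at -0.45 and Sfrp2 at -0.417.

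Genes that moved in 1 direction in both populations were, with the higher effect in CAR cells, Cilp at 1.24, Ltf at 1.08, Chil3 at 1.02, Lcn2 at 0.99, S100a9 at 0.652 and Ank at 0.547. With the higher effect in PaS cells they were Mpo at -1.15 and Dkk3 at -0.443.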

How the results depend on the processing

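The count of called differences, 873, was 615 with no filter on low values and 985 with library weights, and all other alternatives lay between; without any single library it was 650 to 776. Opposed genes numbered 98, from 73 with no filter to 108 with library weights, and 72 to 90 without any single library. With no filter, 559 of the 873 called and 65 of the 98 opposed genes were called again, and without any single library 618 to 699 and 69 to 81. The opposed genes split into 48 up in ko CAR and 50 up in ko PaS cells, or 43 and 30 with no filter. Of the other patterns 2 moved by more than 1.5 times: genes with both effects in 1 direction numbered 54, or 34 with no filter and 35 to 49 without any single library, and genes with neither effect called numbered 86, or 41 with no filter and 54 to 80 without any single library. The largest drops of these were without CAR wt replicate 1 and PaS wt replicate 2. With no filter more genes enter the adjustment.

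List members whose call was lost were not described, so the calls kept by the genes described are no sign of stability. Among these genes, the difference of Ly6a lost its call with no filter (adjusted p = 0.051). Effects within 1 population lost theirs with no filter for Col9a1, Scin, Ackr3, Vcam1, Fn1, Gmnn and Mpo in PaS cells. In CAR cells Ebf1, Col2a1, Gfpt2, Kitl and Nov did so, as did Bmp4 with the replicate block. A pseudocount of 5 ended the calls of Col9a1 in PaS cells and of Ptn and Nov in CAR cells, and 0.1 that of Scin in PaS cells. Quantile normalization ended the CAR calls of Nov and Ebf1 and the PaS call of Vcam1. With each population fitted alone, Col9a1, Bmp4 and Vcam1 lost their PaS calls. Ly6a, Gfpt2, Ptn, Nov and Msmo1 then lost their CAR calls. Across these settings the highest adjusted p was 0.18, for Nov. The effect of Cxcl12 in CAR cells was 0.00, and -0.66 under quantile normalization (adjusted p = 0.00044); the cause was not tested. With the replicate number as a block, 857 differences were called, 800 of them shared with the fit without it, and 99 were opposed. The labels do not say that a number marks a shared source, and the deviations of same-numbered libraries from their group means correlated at -0.0418 to 0.188, over 0.1 in 3 of 18 pairs, so the numbers were not taken to pair the samples.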
